A study of Nematostella vectensis with 84 samples.

Results

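The cells described here carried the SoxC>KikGR reporter and had been classed by the authors as green or red. They were chosen from the deposited cell table by reporter line and colour class alone, and they numbered 2362 of 12352 cells in the series, 1316 green and 1046 red. A further 1011 cells of the line were classed orange and serve as the middle class, and 78 of its 3451 cells had no class. The animals were adults of the starlet sea anemone Nematostella vectensis, 6 to 8 weeks old and heterozygous for the stable SoxC>KikGR transgene. Every SoxC dissociation had 1% DMSO, and no SoxC dissociation without DMSO was analysed here. Cells came from the body wall with mesenteries, were sorted singly from a gate named KikGR+, and their RNA was sequenced by MARS-seq, in which each cell sits in its own well of a plate. The 9 dissociations were made 2 days (1 dissociation), 4 days (3) or 7 days (5) after photoconversion. The labels do not say how many animals entered a dissociation, nor how many founders the line came from. The question put to the data was which cell types lay among the green cells and which among the red.

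KikGR fluoresces green when newly made, and a pulse of light turns it red for good. After a photoconversion, a cell that held the protein earlier carries red protein, and protein made later is green, so the colour of a cell reflects when it made its reporter. SoxC is a transcription factor of the Sox family, known in this animal from progenitors of the lineage that forms neurons, gland cells and stinging cells. Stinging cells, or cnidocytes, are used once and are replaced throughout life, and the gastrodermis is the epithelium that lines the gut. How completely the reporter was converted, and how the boundaries between green, orange and red were set, are not given in the sources used here.

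Cell numbers limited the precision of each dissociation's shares. A dissociation held 245 to 614 cells, spread over 24 libraries on 12 plates, with 88 to 325 green and 23 to 281 red cells. No well name was used more than once. The authors' entries for line, day, medium and dissociation differed from the labels in 0 of 3451 cells. On average 40.2% ± 11.8 (SD, n = 9) of classed cells were green, 31.3% ± 5.81 orange and 28.5% ± 11.4 red. The dissociations numbered 3, 4 and 7 stood apart before any comparison. Dissociation 3 (day 4) had 67 of the 78 cells without a class and only 23 red cells. Dissociation 4 (day 4) had 281 red against 102 green cells, the highest number of red cells. Dissociation 7 (day 7) had 175 green and 50 red cells, and its Gastrodermis cells were 4 green, 29 orange and 0 red. The authors' cell type names were taken as deposited and could not be checked against marker genes, because molecule counts were not used here.

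Green and red SoxC cells differed in composition. Green cells were richer in Gastrodermis, Developing cnidocytes and Progenitor cells, and red cells were richer in the 4 larger neural clusters, Neural 1 to Neural 4. Of 13 broad clusters, 7 (53.8%) passed an adjusted p of 0.05, 3 of them higher in green and 4 higher in red. Each difference was taken within a dissociation as the share of green cells in a cluster minus the share of red cells in it, in percentage points. The 9 differences were tested with a two-sided exact sign-flip permutation test, whose smallest possible p is 0.00391, with Benjamini-Hochberg adjustment across all 13. Because shares of a colour sum to the whole, a large cluster moves the shares of all the others.

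**Figure D1:**
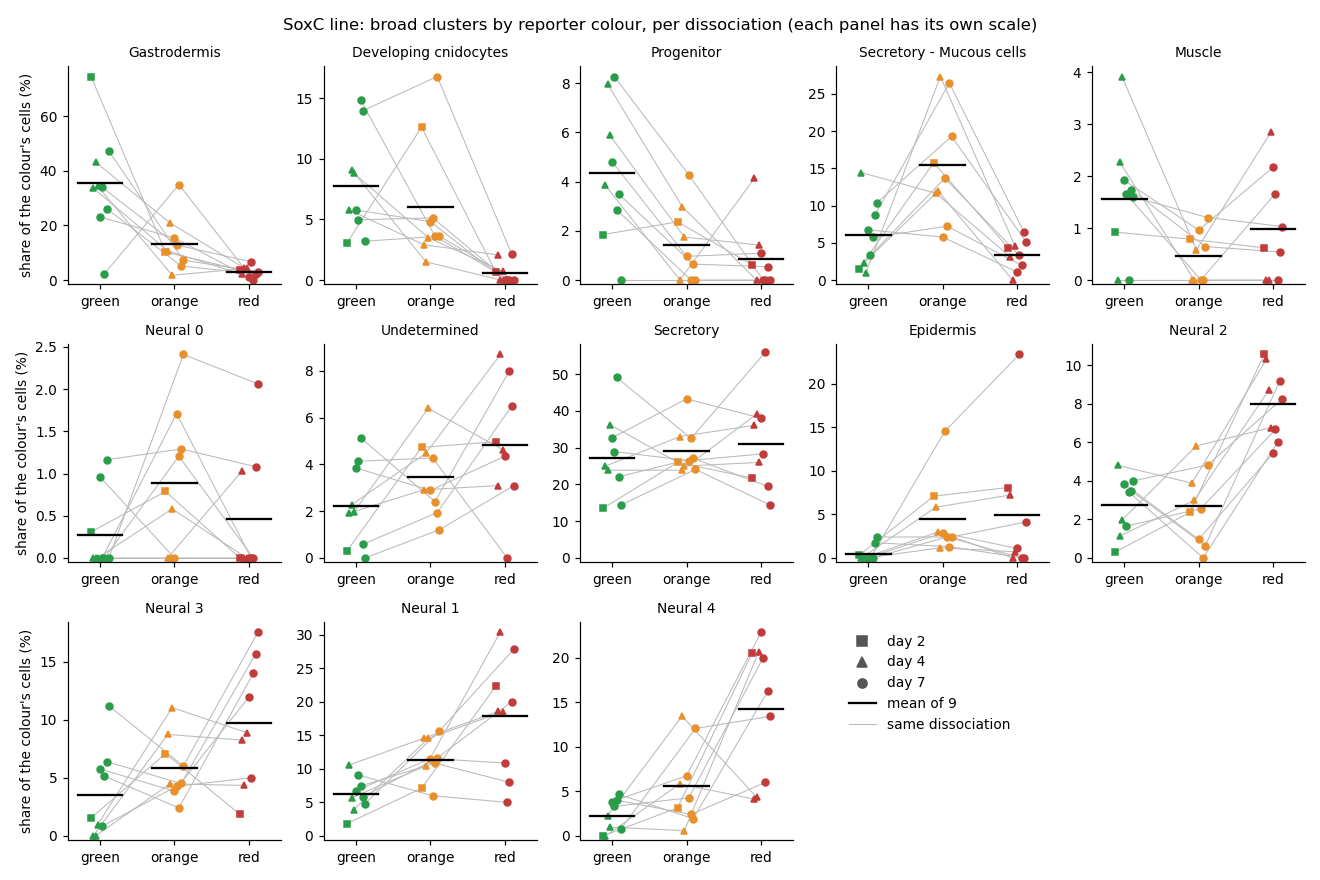
Share of green, orange and red cells in each of 13 broad clusters (percent of the colour's cells in a dissociation, y axis, own scale per panel). Each point is 1 of 9 SoxC dissociations, its shape the day, grey lines join the colours of a dissociation, and black bars are means: Gastrodermis falls from 35.4% in green to 3.05% in red, and Neural 4 rises from 2.21% to 14.2%.

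Among the clusters higher in green, Gastrodermis was the largest. It held 523 green and 33 red cells. Its share of green cells ran from 2.29% in dissociation 7 through a median of 33.9% to 74.5% in dissociation 1, and its share of red cells from 0% through 3.09% to 6.67%. The green share exceeded the red share in 9 of 9 dissociations, although dissociation 7 lay inside the range of the red shares. The mean difference was 32.3 points ± 18.6 (SD, n = 9; exact permutation p = 0.00391, adjusted p = 0.0102). The same direction held in 24 of 24 libraries, where the difference ran from 2.17 to 80.5 points.

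Developing cnidocytes held 99 green cells and 9 red ones. Their share of green cells ran from 3.08% through a median of 5.77% to 14.9%, and of red cells from 0% through 0% to 2.16%. The 2 ranges did not overlap, and 5 of 9 dissociations had no red cell in the cluster. A count of 0 among the 92 red cells of dissociation 5 allows a share of up to 3.26%, and among the 23 of dissociation 3 one of up to 13.0%, by counting alone. The mean difference was 7.10 points ± 4.21 (SD, n = 9; exact permutation adjusted p = 0.0102), with green higher in 9 of 9 dissociations and in 22 of 24 libraries.

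Progenitor cells were fewer, 49 green and 11 red. Their share of green cells ran from 0% through a median of 3.85% to 8.26%, and of red cells from 0% through 0.541% to 4.12%. Green was higher in 7 of 9 dissociations, red in dissociation 2, and dissociation 9 had no Progenitor cell of either colour. The mean difference was 3.46 points ± 3.08 (SD, n = 9; exact permutation adjusted p = 0.0290). This call held in 2 of 9 fits that left out a dissociation. Without dissociation 1, 3, 4, 5, 6, 7 or 8 the difference stayed between 2.86 and 3.74 points with an exact permutation adjusted p of 0.0508 to 0.0580, in a design whose smallest possible p is 0.00781. With orange cells joined to the green ones it was 2.05 points and the call was also lost (exact permutation adjusted p = 0.0889).

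Among the clusters higher in red, the largest differences were in Neural 4 and Neural 1. Neural 4, a cluster of a single fine type that the authors name Anoctamin8, held 27 green and 175 red cells. Its share of green cells ran from 0% through a median of 2.27% to 4.65%, and of red cells from 4.12% through 16.2% to 22.8%. In dissociation 1 none of 325 green cells fell in it, which allows a share of up to 0.923%, against 33 of 161 red cells (20.5%, 95% Wilson interval 15.0% to 27.4%). The mean difference was -12.0 points ± 7.61 (SD, n = 9; exact permutation adjusted p = 0.0102), with red higher in 9 of 9 dissociations. It was smallest in dissociations 3 and 7, at -2.08 and -2 points, the 2 with the fewest red cells.

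Neural 1, the largest neural cluster with 13 fine types, held 73 green and 194 red cells. Its share of green cells ran from 1.85% through a median of 5.81% to 10.6%, and of red cells from 5.00% through 18.6% to 30.4%. Red was higher in 8 of 9 dissociations, and dissociation 6 had 9.09% of green against 5.00% of red cells. The mean difference was -11.7 points ± 10.2 (SD, n = 9; exact permutation adjusted p = 0.0254). Without dissociation 1, 3, 4, 5 or 8 it was -10.1 to -12.7 points with an exact permutation adjusted p of 0.0508.

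Neural 3 and Neural 2 showed smaller differences in the same direction in every dissociation. Neural 3 held 47 green and 104 red cells, with a green share of 0% through 1.54% to 11.2% and a red share of 1.86% through 8.90% to 17.5%. Its mean difference was -6.18 points ± 2.87 (SD, n = 9; exact permutation adjusted p = 0.0102), and the smallest, -0.325, was in dissociation 1. Neural 2 held 32 green and 85 red cells, with a green share of 0.308% through 3.43% to 4.81% and a red share of 5.43% through 8.25% to 10.6%. These ranges did not overlap, and the mean difference was -5.25 points ± 2.56 (SD, n = 9; exact permutation adjusted p = 0.0102). With Neural 0 added, all neural clusters together made up 15.0% ± 6.58 (SD, n = 9) of green, 26.3% ± 8.32 of orange and 50.4% ± 11.5 of red cells. The highest neural share of green cells in any dissociation was 21.5% and the lowest of red cells 34.0%.

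The other 6 broad clusters did not pass. Secretory cells, the gland cells of the animal, were 27.3% ± 11.1 (SD, n = 9) of green and 31.0% ± 12.7 of red cells, a difference of -3.70 points (exact permutation adjusted p = 0.199). Mucous secretory cells were 6.01% of green and 3.35% of red cells (exact permutation adjusted p = 0.148). Undetermined cells differed by -2.57 points (exact permutation adjusted p = 0.0825). Muscle, with only 18 green, 5 orange and 14 red cells in all, differed by 0.573 points (exact permutation adjusted p = 0.0903). Neural 0, with 4 green and 5 red cells, differed by -0.194 points (exact permutation adjusted p = 0.688). Epidermis held 7 green and 41 red cells, a difference of -4.45 points (exact permutation adjusted p = 0.102) that was -2.10 points without dissociation 6. Of those red Epidermis cells 14 were in dissociation 6 and 13 in dissociation 1, and 6 of 9 dissociations had no green one.

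Joining orange cells to either class moved some of these results. With green set against red and orange together, Epidermis and Muscle passed, at -4.20 and 0.840 points (both exact permutation adjusted p = 0.0254). The 7 clusters called above passed there too, with Developing cnidocytes at 4.39 points, Neural 2 at -2.38 and Neural 3 at -4.08. With green and orange together set against red, mucous cells passed at 7.15 points (exact permutation adjusted p = 0.0127), while with green set against red and orange they were at -3.46 (adjusted p = 0.166).

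Since Gastrodermis took 35.4% of the green cells and few of the red, the comparison was repeated with its cells left out of every total. Then 9 of 12 broad clusters (75%) passed, 5 higher in green and 4 higher in red. The cnidocyte difference was 11.1 points ± 4.28 (SD, n = 9), and its 2 ranges again did not overlap (exact permutation adjusted p = 0.0156). Progenitor cells differed by 6.04 points (exact permutation adjusted p = 0.0234) and had no dissociation with a higher red share. Neural 4 stayed at -11.7 points and Neural 2 at -4.16 (both exact permutation adjusted p = 0.0156), red being higher in 9 of 9 dissociations for each. These 4 clusters passed in 9 of 9 fits that left out a dissociation.

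The other 5 calls made without Gastrodermis were weaker. Secretory cells changed direction: they were 42.4% ± 9.67 (SD, n = 9) of the remaining green and 31.9% ± 12.6 of the remaining red cells, 10.5 points higher in green in 8 of 9 dissociations (exact permutation adjusted p = 0.0469). Mucous cells were 5.92 points higher in green (exact permutation adjusted p = 0.0391) and Muscle, with 18 green and 14 red cells, 1.64 points (0.0375). The cells of these clusters were unchanged, while the totals lost 523 green and 33 red Gastrodermis cells. Neural 1 was 8.96 points lower in green than in red and Neural 3 4.26 points lower (both exact permutation adjusted p = 0.0469). Each of these 5 passed in 1 to 3 of 9 fits that left out a dissociation. Secretory passed only without dissociation 7 and Neural 1 only without dissociation 6, Neural 3 only without dissociation 1 or 9, and Muscle and mucous cells in 3 fits each. None of the 5 passed on the log odds scale, where their exact permutation adjusted p was 0.0603 to 0.130, a scale tried after the data had been seen. Secretory and mucous cells summed were 51.8% ± 6.34 (SD, n = 9) of the remaining green and 35.4% ± 11.0 of the remaining red cells (exact permutation adjusted p = 0.00781 over 2 groups). With Gastrodermis in the total, the same sum was 33.3% of green and 34.4% of red cells (exact permutation adjusted p = 0.660 over 3 groups).

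**Figure D2:**
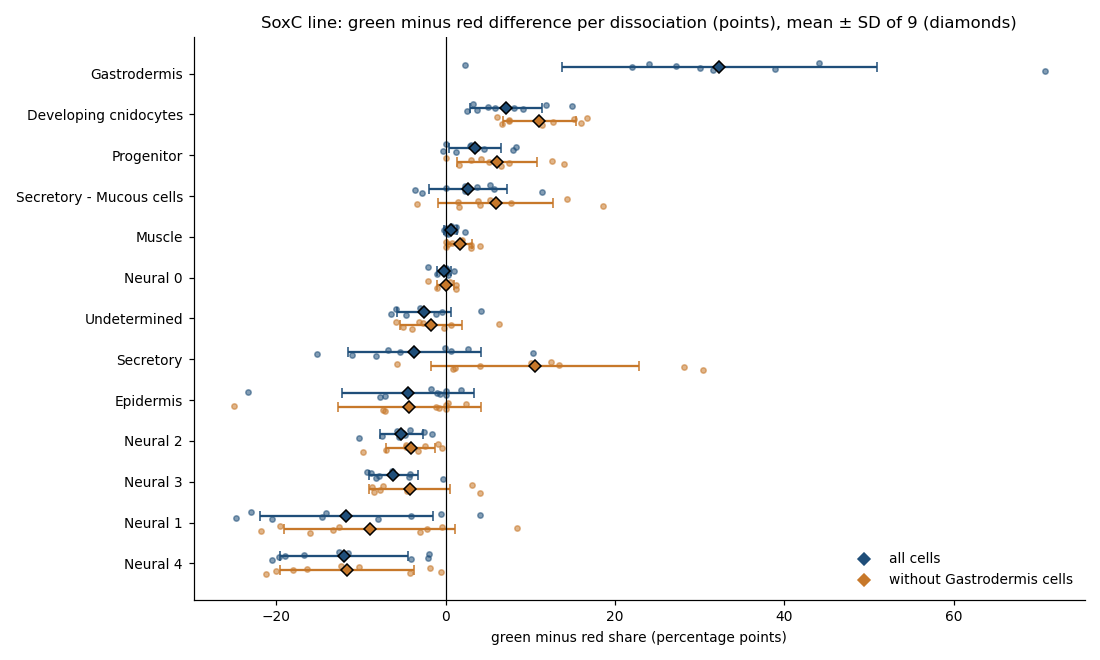
Green minus red difference in percentage points (x axis) for each broad cluster, with all cells (blue) and without Gastrodermis cells (orange). Small points are the 9 dissociations and diamonds with bars the mean ± SD. Secretory moves from -3.70 to 10.5 points, and Developing cnidocytes and Neural 4 lie on 1 side of 0 in both.

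The authors divided the SoxC cells into 45 fine clusters, of which 26 had at least 30 green plus red cells spread over at least 6 dissociations. Of these 26, 5 (19.2%) passed, 3 higher in green and 2 higher in red, and before adjustment 10 had an exact permutation p under 0.05. Cluster 3, Gastrodermis, showed the largest difference. It held 218 green cells and 1 red cell, with a green share of 1.14% through 13.6% to 33.0%, and its only red cell was in dissociation 4. The mean difference was 15.2 points ± 10.2 (SD, n = 9; exact permutation adjusted p = 0.0254). With green set against red and orange together it was 9.72 points and did not pass (exact permutation adjusted p = 0.131). Cluster 2, also Gastrodermis, held 146 green and 30 red cells and differed by 8.37 points ± 4.63 (SD, n = 9; exact permutation adjusted p = 0.0254). It held 30 of the 33 red Gastrodermis cells, and its difference was 4.53 points with orange joined to green.

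The remaining 3 fine calls were the cluster of developing cnidocytes and the Anoctamin8 cluster, both identical to their broad clusters, and cluster 39, named Neural 3 - PaxC after a Pax-family transcription factor. Cluster 39 held 6 green and 40 red cells, with a highest green share of 1.6% and a red share of 0% through 3.33% to 8.25%. Red was higher in 8 of 9 dissociations, dissociation 3 having none of either colour, and the mean difference was -3.07 points ± 2.22 (SD, n = 9; exact permutation adjusted p = 0.0406). With 26 tests and 9 dissociations these calls sat at the edge of what the design can pass. None of the 26 passed when dissociation 1, 2, 4, 6, 7, 8 or 9 was left out, where the smallest possible exact permutation p is 0.00781, and 5 passed without dissociation 3 or 5. Those 5 were not the same clusters in both fits. Cluster 39 passed in only 1 of 9 fits that left out a dissociation, as did cluster 22, Neural 2 - WFSa. Without Gastrodermis, 4 of 23 fine clusters (17.4%) passed. They were 0 - Progenitor, the developing cnidocytes, Anoctamin8 and PaxC (each exact permutation adjusted p = 0.0449), and none of them passed when any of the 9 dissociations was left out.

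Another 4 fine clusters just outside the threshold were singled out after their values were seen. Cluster 8, named Gd - Parietal Muscle and placed by the authors in Gastrodermis, held 110 green and 2 red cells, of which 70 green cells were in dissociation 1. Its difference of 5.98 points ± 6.42 (SD, n = 9) had an exact permutation adjusted p of 0.0508. Cluster 22, Neural 2 - WFSa, held 22 green and 69 red cells and differed by -4.84 points (exact permutation adjusted p = 0.0508). Cluster 17, Neural 3 - Insm/FoxQ2d, held 41 green and 64 red cells and differed by -3.11 points (exact permutation adjusted p = 0.0564). Cluster 0, Progenitor, identical to its broad cluster, had an adjusted p of 0.0508 among the fine clusters by the same exact permutation test. The 8 Secretory types tested, among them those named for trypsin and chitinase, differed by -1.13 to 0.476 points in mean, with an exact permutation p of 0.379 or more. Of the 19 fine clusters below the minimum, cluster 30, Gastrodermis, held 49 green and 0 red cells, and cluster 35, Neural 2 - PaxC, 5 green and 0 red. In the other direction, cluster 31, Neural 1 - FRPa, held 0 green and 7 red cells, cluster 29, Neural 2, 0 and 6, cluster 44, Undetermined, 0 and 3, and cluster 13, Neural 1, 4 and 22.

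**Figure D3:**
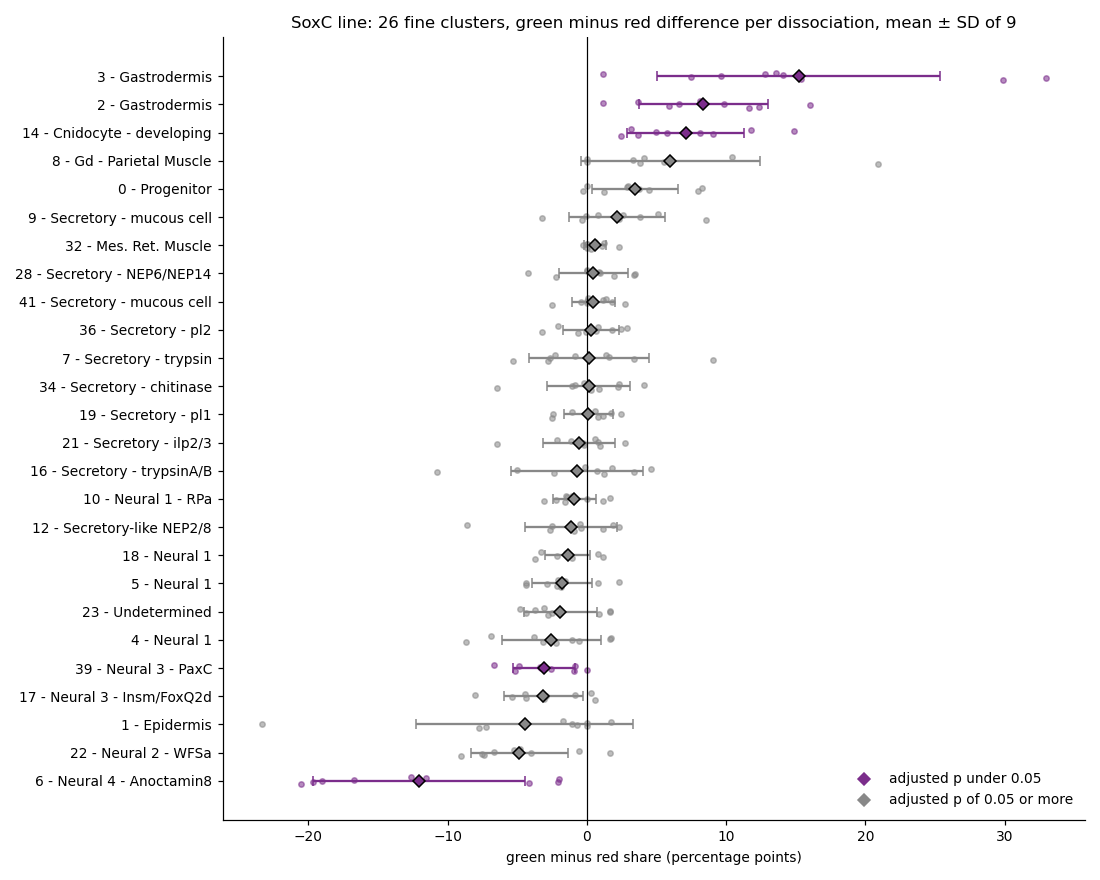
Green minus red difference in percentage points (x axis) for the 26 fine clusters tested, ordered by mean. Small points are the 9 SoxC dissociations and diamonds with bars the mean ± SD. Purple marks an adjusted p under 0.05: clusters 3, 2 and 14 on the green side (15.2, 8.37 and 7.10 points) and clusters 39 and 6 on the red side (-3.07 and -12.0).

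Whether the fine types of a broad cluster were mixed differently in its green and red cells was asked within broad clusters of at least 100 cells, in dissociations with at least 5 cells of each colour there. None of 36 fine clusters passed (0%), and before adjustment 2 had an exact permutation p under 0.05. The design left little room for a call: the smallest possible exact permutation p before adjustment over the 36 was 0.00391 for Secretory types (9 dissociations), 0.0312 for Neural 1 (6), 0.125 for Neural 3 (4), 0.25 for Neural 2 and mucous cells (3) and 0.5 for Gastrodermis (2). The count of 0 therefore does not show that the mixtures were alike. Cluster 5 was 3.18% of green and 16.3% of red Neural 1 cells over 6 dissociations (exact permutation p = 0.0312, adjusted p = 0.562). Cluster 38, Secretory - trypsinA/C, was 2.13% of green and 6.08% of red Secretory cells over 9 dissociations (exact permutation p = 0.0156, adjusted p = 0.562). In the 2 dissociations of Gastrodermis, with 6 and 12 red cells of it, cluster 2 made up 38.5% of green and 83.3% of red Gastrodermis cells. In the 3 of Neural 2, with 5, 6 and 5 green cells of it, WFSa was 55.6% of green and 86.6% of red cells of that cluster. Over all 9 dissociations WFSa held 22 of 32 green and 69 of 85 red Neural 2 cells, a smaller gap.

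Orange cells, the middle class, were tested against red, against green, and against the mean of the green and red shares, with p-values adjusted over the 13 clusters in each case. Against red, 4 of 13 clusters (30.8%) passed. Developing cnidocytes were 6.05% of orange and 0.617% of red cells, higher in orange in 9 of 9 dissociations (5.43 points, exact permutation adjusted p = 0.0169). Gastrodermis was 13.2% of orange cells, 10.2 points above red (exact permutation adjusted p = 0.0254). Neural 2 was 2.67% of orange and 7.98% of red cells, lower in orange in 9 of 9 dissociations (exact permutation adjusted p = 0.0169). Against green, 0 of 13 (0%) passed and 6 had an unadjusted exact permutation p under 0.05.

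Mucous secretory cells were the fourth cluster to differ between orange and red, and their pattern was unlike the others. They made up 15.5% ± 7.65 (SD, n = 9) of orange cells, against 6.01% ± 4.54 of green and 3.35% ± 2.06 of red. Their share of orange cells ran from 5.77% through a median of 13.7% to 27.3%, above the red share in 9 of 9 dissociations and above the green share in 7 of 9, the exceptions being dissociations 2 and 5. Orange exceeded red by 12.1 points (exact permutation adjusted p = 0.0169) and the mean of green and red by 10.8 points ± 7.54 (SD, n = 9), positive in 9 of 9. That second difference had the smallest p the design allows (exact permutation p = 0.00391) and an adjusted p of 0.0508. No cluster of 13 (0%) passed this comparison, and 5 had an unadjusted exact permutation p under 0.05.

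Without Gastrodermis, 5 of 12 clusters (41.7%) had an orange share away from the mean of green and red. Mucous cells were 10.9 points above it (exact permutation adjusted p = 0.0312) and Epidermis 2.18 points above (0.0469). Progenitor cells were 2.25 points below it and Neural 2 3.21 points below (both exact permutation adjusted p = 0.0312), and Muscle was 1.33 points below (0.0469). Progenitor cells were 6.93% of green, 1.66% of orange and 0.888% of red cells, and Neural 2 was 4.08%, 2.96% and 8.24%.

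The colour makeup of each cluster gives the same cells from the other side. Over dissociations with at least 5 classed cells of a cluster, 68.0% ± 23.3 (SD, n = 9) of Gastrodermis cells, 68.4% ± 17.1 (SD, n = 8) of Progenitor cells and 58.8% ± 18.3 (SD, n = 9) of Developing cnidocytes were green. Red made up 56.6% ± 28.8 (SD, n = 9) of Neural 4, 53.4% ± 15.2 (SD, n = 9) of Neural 2, 44.2% ± 14.0 (SD, n = 8) of Neural 3 and 43.6% ± 20.5 (SD, n = 9) of Neural 1. Mucous cells were 57.5% ± 16.9 (SD, n = 9) orange. Secretory cells were spread nearly evenly, with 37.4% green, 33.2% orange and 29.4% red.

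The day after photoconversion was examined last. Day 2 was represented by 1 dissociation, so its difference from other days rests on that dissociation. The slope of the green minus red difference on day was tested by exact permutation of day over the 9 dissociations. None of 13 broad clusters passed (0%), and 2 had an unadjusted exact permutation p under 0.05. The Gastrodermis difference was 70.7 points on day 2. It averaged 33.5 ± 4.69 (SD, n = 3) over the day 4 dissociations and 23.9 ± 14.9 (SD, n = 5) over those of day 7. Its slope was -6.71 points per day (exact permutation p = 0.0258, adjusted p = 0.168), and it was -3.19 without dissociation 1 (exact permutation adjusted p = 1) and -8.12 without dissociation 9 (adjusted p = 0.0464). The range on day 7, from 2.29 to 44.1 points, enclosed all 3 values of day 4.

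The Neural 2 difference was -10.3 points on day 2. It averaged -5.95 ± 1.43 (SD, n = 3) at day 4 and -3.82 ± 1.71 (SD, n = 5) at day 7. Its slope was 1.04 points per day (exact permutation p = 0.00992, adjusted p = 0.129), with an adjusted p of 1 by the same exact permutation test once dissociation 1 was left out. The cnidocyte difference was 2.46 points at day 2, with means of 6.97 ± 2.87 (SD, n = 3) at day 4 and 8.12 ± 4.96 (SD, n = 5) at day 7. For Neural 4 the same 3 values were -20.5, -8.62 ± 9.62 (SD, n = 3) and -12.4 ± 6.53 (SD, n = 5) points. Between day 4 and day 7 alone, the smallest exact permutation p was 0.179, for Neural 2. With Gastrodermis left out, 0 of 12 clusters passed, and 1 had an exact permutation p under 0.05 before adjustment.

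**Figure D4:**
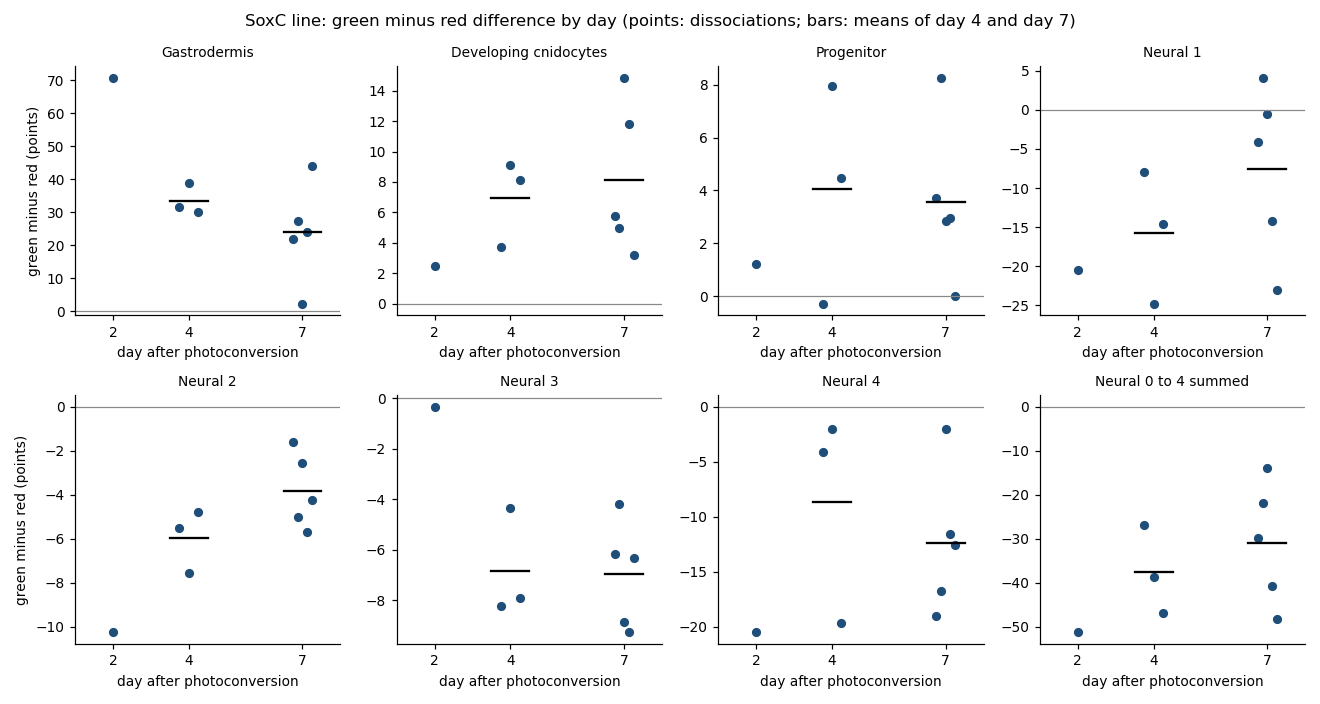
Green minus red difference in percentage points (y axis, own scale per panel) by day after photoconversion (x axis), for 7 broad clusters and the neural clusters summed. Points are the 9 SoxC dissociations (1, 3 and 5 per day) and black bars the means of days 4 and 7. The 3 Gastrodermis values of day 4 lie within the range of day 7, 2.29 to 44.1 points, and the day 2 value is 70.7.

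Finally, the SoxC differences were set beside those of the 2 other reporter lines, Elav>KikGR and FoxL2>KikGR, to ask where the lines differed. Dissociations with at least 10 green and 10 red cells were used, 6 of 8 in Elav (511 green and 475 red cells) and 5 of 10 in FoxL2 (234 green and 544 red cells). All 5 FoxL2 dissociations and 2 of the 6 Elav ones had 1% DMSO, and the other 4 Elav ones have no treatment stated. The days also differed: days 2, 4 and 7 had 1, 3 and 5 dissociations of SoxC. Those days had 3, 1 and 2 Elav dissociations, against 1, 2 and 2 for FoxL2, and day was not a term of the test unless stated. Line was permuted exactly over dissociations, with 5005 and 2002 arrangements. Against Elav 4 of 13 clusters (30.8%) differed, and against FoxL2 2 of 13 (15.4%).

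Developing cnidocytes differed from both lines. Their green minus red difference was 7.10 points in SoxC. In Elav it was -1.95 ± 1.97 (SD, n = 6), and in FoxL2 it was -2.28 ± 1.17 (SD, n = 5), so that green was the richer colour in 9 of 9, 1 of 6 and 0 of 5 dissociations. The SoxC minus Elav difference was 9.05 points (exact permutation adjusted p = 0.00519) and the SoxC minus FoxL2 difference 9.38 points (adjusted p = 0.0130). Both rest on few cells outside SoxC, 3 green and 11 red in Elav and 1 green and 13 red in FoxL2. The minimum of 10 cells left out most green Elav cells of this cluster. Over all 8 Elav dissociations it held 10 green and 11 red cells, pooled shares of 1.09% of green and 2.25% of red. Among the 2 Elav dissociations with DMSO the first was 10.7 points, with an exact permutation adjusted p of 0.118 in a design of 55 arrangements. The smallest possible exact permutation p there is 0.0182 before adjustment over the 13 clusters, which left little room for a call. With a minimum of 5 in place of 10 cells the SoxC minus FoxL2 difference was 7.18 points (exact permutation adjusted p = 0.0807). That setting used 7 FoxL2 dissociations, and those it added have no treatment stated, so medium changed together with the minimum.

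Neural 4 also differed from both lines, at -12.0 points in SoxC. Elav stood at -1.54 ± 1.45 (SD, n = 6), whereas FoxL2 stood at 2.32 ± 2.92 (SD, n = 5). The SoxC minus Elav difference was -10.5 points (exact permutation adjusted p = 0.0390), and the SoxC minus FoxL2 difference was -14.3 (adjusted p = 0.0162). Neural 4 held no green and 7 red cells of the Elav dissociations used, and 9 of each colour in FoxL2. Green was the richer colour in 0 of 9 SoxC, 0 of 6 Elav and 4 of 5 FoxL2 dissociations, so Elav differed in size and not in direction. Pooled over all dissociations, Neural 4 was 16.7% of red SoxC cells, but only 1.43% in Elav and 1.58% in FoxL2. A cluster that rare cannot show a gap in points as large as in SoxC. Whether the colour bias differed apart from this rarity was not tested. The Elav call was lost on the log odds scale, and without SoxC dissociation 4, 5 or 8 or Elav dissociation 21 or 25 (-9.53 to -10.5 points, exact permutation adjusted p = 0.0519 to 0.0747). Nor did it pass among DMSO dissociations, where the 2 of Elav left little room for a call. The FoxL2 call was lost without FoxL2 dissociation 16 (-13.2 points, exact permutation adjusted p = 0.0545).

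Neural 3 and Neural 0 also differed from Elav, by -4.50 and 1.85 points (both exact permutation adjusted p = 0.0390). Both rest on few cells: the Elav dissociations used held 3 green and 8 red cells of Neural 3 and 2 green and 13 red of Neural 0. Neither passed when line was permuted within day or on the log odds scale, and Neural 3 did not pass without Gastrodermis (-2.68 points). Nor did either pass among DMSO dissociations, where the 2 of Elav left little room for a call. They passed in 6 and 8 of 15 fits that left out 1 dissociation. For Gastrodermis the outcome depended on how day and medium were handled. Its green minus red difference was 32.3 points in SoxC and 13.7 ± 19.7 (SD, n = 6) in Elav (exact permutation adjusted p = 0.161). FoxL2 stood at 41.1 ± 20.8 points (SD, n = 5; exact permutation adjusted p = 0.707 against SoxC). It was positive in 9 of 9, 5 of 6 and 5 of 5 dissociations. The SoxC minus Elav difference of 18.6 points was 28.5 with line permuted within day, which passed (exact permutation adjusted p = 0.0193), and -2.63 among DMSO dissociations, with 2 of Elav (adjusted p = 0.982). Those 2 Elav dissociations were of day 2 and day 4, whereas 5 of the 9 SoxC ones were of day 7. Day and medium cannot be told apart in that comparison. Neural 1 was at -11.7 points in SoxC and 3.62 ± 14.8 (SD, n = 6) in Elav, a difference of -15.4 (exact permutation adjusted p = 0.0722). Leaving Gastrodermis out brought it to -19.1 (adjusted p = 0.0342). In FoxL2, Neural 1 was at -18.0 ± 17.9 (SD, n = 5; exact permutation adjusted p = 0.707 against SoxC).

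**Figure D5:**
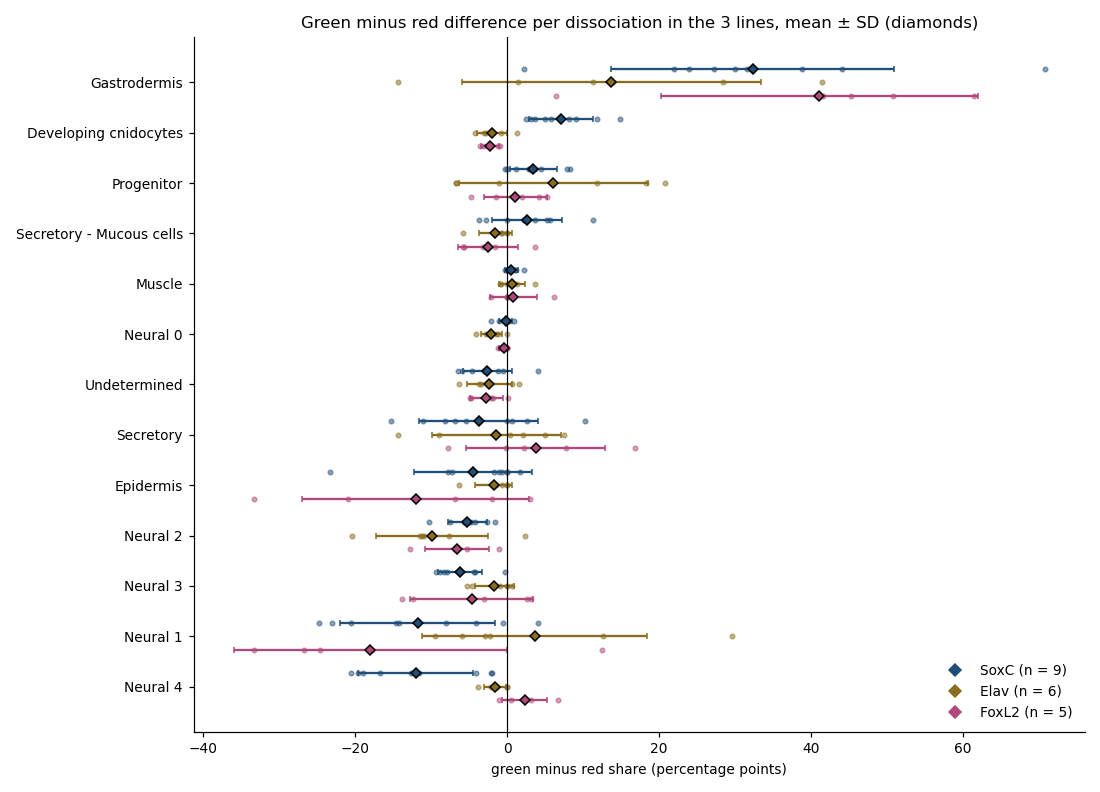
Green minus red difference in percentage points (x axis) by broad cluster in the SoxC (9 dissociations), Elav (6) and FoxL2 (5) lines. Small points are dissociations and diamonds with bars the mean ± SD. Developing cnidocytes lie above 0 in SoxC (7.10 points) and below it in Elav and FoxL2 (-1.95 and -2.28), and Neural 4 is at -12.0, -1.54 and 2.32 points in the 3 lines.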

How the data were processed

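Values are categories, not molecule counts. The deposited cell table gives, per the file headers, 1 line per cell with its library, gate, cluster, broad cluster and colour class, all set by the authors. Per the submitters' processing notes STARsolo and STAR 2.7.10b were used. The clustering, doublet treatment, cell filters and colour rule are not given in the sources used here. The deposited well lists covered 20 of 24 SoxC libraries, in which 2877 of 3800 sorted wells (75.7%) were in the cell table and 0 of 40 control wells were. Gene annotation was not used.

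The replicate was the dissociation named in the labels. Nothing says that dissociations came from separate animals or crosses, so p-values measure the spread between dissociations only. Shares and tests were computed with Python 3.11.15, numpy 2.4.6, pandas 2.3.3 and scipy 1.17.1, tested on simulated data. Shares of single dissociations carry 95% Wilson intervals, and a share of 0 its limit of 3 counts; both reflect counting error only. Broad clusters are all reported. Of fine clusters past the threshold, up to 12 with the largest difference are named. Clusters, groups and lines to compare were chosen with earlier results of these data known. Alternatives covered the log odds with 0.5 cells added, left-out clusters, merged colours, weighting, minimum cell numbers, library, pool, day and each dissociation. Leave-out, log odds and within-library versions of the results without Gastrodermis were added after seeing the data.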

Additional observations from a re-analysis of the deposited data

Results flagged for a closer look

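A value was picked out when 1 of 9 dissociations lay far from the rest by Dixon's criterion, which picks about 1 group in 20 by chance; 5 of 55 groups were picked. Epidermis in dissociation 6 accounts for 3 of them. There the green minus red difference was -23.3 points against -7.77 in the next dissociation, the share of red cells was 23.3% against 8.07%, and the share of orange cells was 14.5% against 7.09%. Progenitor cells were 4.12% of red cells in dissociation 2, 4 of 97 cells, against 1.42% in the next. Secretory cells were 43.3% of orange cells in dissociation 5, against 33.0% in the next.

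A difference between reporter lines under the same green against red contrast was found in 6 cases by exact permutation of line over dissociations. They were 4 of 13 clusters (30.8%) against Elav and 2 of 13 (15.4%) against FoxL2. With a dissociation left out, the Elav calls held in 15 of 15 fits for Developing cnidocytes, 10 for Neural 4, 8 for Neural 0 and 6 for Neural 3. The FoxL2 calls held in 14 of 14 fits for Developing cnidocytes and 13 for Neural 4. SoxC minus Elav was 9.05 points for Developing cnidocytes, 1.85 for Neural 0, -4.50 for Neural 3 and -10.5 for Neural 4. SoxC minus FoxL2 was 9.38 points for Developing cnidocytes and -14.3 for Neural 4.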

How the results depend on the processing

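The number of broad clusters that differed between green and red stayed between 5 and 9 under every alternative and left-out dissociation run, against 7 as reported. The calls lost or gained when orange was joined to a class stand beside the results. The number without Gastrodermis was 9; it was 4 on the log odds scale and 4 to 8 when a dissociation was left out, all chosen after seeing the data. The fine count of 5 became 9 without Undetermined cells, 9 with green set against red and orange together, 9 within libraries, 9 weighted by cells, 8 with at least 60 cells per cluster, 0 on the colour balance of a cluster, and 0 to 5 when a dissociation was left out. The colour balance used only dissociations with at least 5 green plus red cells of a cluster. All 5 called clusters lost dissociations there, which raised the smallest possible p, so that 0 does not show that the differences vanished. Without Gastrodermis the fine count of 4 became 2 within libraries and 0 to 0 when a dissociation was left out, both added after seeing the data. By day, 0 to 1 clusters passed with a dissociation left out. Orange stood away from the mean of green and red in 0 clusters, and in 5 without Gastrodermis. Against Elav, 4 differing clusters became 0 among DMSO dissociations, 1 on the log odds scale and 1 to 6 with a dissociation left out. The DMSO setting held 2 Elav dissociations and left little room for a call, so its 0 does not show that the lines were alike. Against FoxL2, 2 became 1 with a minimum of 5 cells, which also brought in dissociations with no treatment stated, and 1 to 2 with a dissociation left out.

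Directions turned for Secretory without Gastrodermis (10.5 points), for mucous cells with green against red and orange (-3.46), and for the SoxC minus Elav difference of Gastrodermis among DMSO dissociations (-2.63). In that last comparison the Elav dissociations were of days 2 and 4 only. Neural 0, with 9 cells, turned with green and orange against red (0.0586), and ran from -0.338 to 0.0400 with a dissociation left out. Without Gastrodermis it turned on the log odds scale (0.0287) and ran from -0.188 to 0.234 with a dissociation left out. For Secretory the cells were the same 339 green and 282 red with and without Gastrodermis, and only the totals changed. The causes of the other turns were not tested. Green and red were paired within each dissociation throughout.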

Other observations

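The 78 SoxC cells without a colour class were not spread evenly, as 67 came from dissociation 3, where they were 30 Secretory, 11 Gastrodermis and 10 Neural 1 cells and no Developing cnidocytes or Neural 4 cells. If all 67 were counted as green, the green minus red difference of Gastrodermis in that dissociation would be 27.3 points, and 29.8 if all were counted as red, in place of 38.8. For Neural 4 it would be -3.06 or 1.16 in place of -2.08, and for Neural 1 -20.8 or -13.2 in place of -24.8.

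Dissociation 7 had the fewest Gastrodermis cells among its green cells, 4 of 175, and the most among its orange cells, 29 of 83 (34.9%, 95% Wilson interval 25.6% to 45.7%). All 29 orange cells were of cluster 3. In the other 8 dissociations the Gastrodermis share was higher in green than in orange.

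By demultiplexing pool, the mean Gastrodermis difference was 41.8, 38.8 and 18.6 points in the 3 listed pools and 41.0 in the 4 libraries not listed, and the Neural 4 difference was -17.0, -15.1, -8.37 and -13.7 points. The pool with 18.6 points held 3 dissociations, among them dissociation 7.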
